A study of Mus musculus with 24 samples.

Results

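The contractile machinery of smooth muscle was followed through 10 genes in the postnatal mouse lung: Acta2, Actg2, Myh11, Tagln, Cnn1, Des, Myocd, Lmod1, Mylk and Smtn. They were found by mapping the RefSeq transcript of each array probe to a gene symbol, and all 10 were present among the 19752 named genes of the array and the 15916 genes that were tested. The members were carried by 11 probes, 1 for each gene and 2 for Smtn. Each probe was well above background on every array where its spot was usable.

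Smooth muscle wraps airways and blood vessels and contracts when calcium and calmodulin switch on myosin light chain kinase, which lets smooth muscle myosin pull on actin filaments. The transcription of these genes is known to depend on serum response factor, which binds CArG boxes in their control regions, and on its coactivator myocardin. In the newborn lung, alveolar myofibroblasts share part of this programme while the alveoli form, and smooth muscle actin is a usual marker of them.

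RNA came from the whole lung of C57BL/6 mice of 5 ages, with 5 samples each for postnatal days 1, 4, 7 and 14 and 4 samples for day 42. The labels name no treatment or genetic change. Each of the 24 samples was hybridised to 1 single-colour array, and the arrays lay on 3 slides that each held every age. The labels call the samples biological replicates without stating separate animals, so p-values measure the spread between these samples. Whole lung markers of alveolar epithelium (Sftpc, Sftpb, Ager), airway epithelium (Scgb1a1) and endothelium (Pecam1, Cdh5) were well above background on all 24 arrays.

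Along the first principal component (49.8% of the variance) 5 arrays stood apart from the others, namely replicates 4 and 5 of day 1, replicates 1 and 3 of day 4, and replicate 4 of day 42. They lay between -161.22 and -100.23 on it and all others at -15.64 or above. Their 75th percentiles of intensity were the 5 lowest (476.1 to 979.3, others 995.5 to 1652.7), and so were their shares of spots well above background (50.4% to 56.0%, others 57.0% to 79.7%). On the second component (27.9%) day 14 replicate 5 lay at -8.62, between the day 7 arrays and the other day 14 arrays. Calls of members and counts of gene lists are given with and without the 5 arrays. The named genes that are no members are given over all arrays: each that is called below at day 42 was also called, in the same direction, without the 5. A level below is the log2 of the processed intensity minus the log2 of that array's 75th percentile, so 0 stands for the 75th percentile, and levels of different probes are not comparable.

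The members did not move as one group. Between day 7 and day 14, 4 of 10 fell, where 5.53% of all genes did and 11.6% changed in either direction: Acta2, Actg2, Myh11 and Myocd, by 2.40-fold to 3.24-fold. At day 42, 6 of 10 were lower than at day 1, where 13.7% of all genes were and 26.7% differed in either direction. These were the same 4 genes, by 3.03-fold to 6.34-fold, and Tagln and Smtn, by 2.46-fold and 2.17-fold. Against day 7, 3 of 10 were lower at day 42 (Actg2, Myh11 and Myocd), where 9.9% of all genes were and 25.1% differed in either direction. Cnn1, Des, Lmod1 and Mylk passed in none of the 6 comparisons between ages. These calls are from limma with p-values adjusted over all genes tested and a threshold of 0.05. In whole tissue, fewer cells of a type and less RNA per cell cannot be told apart.

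**Figure D1:**
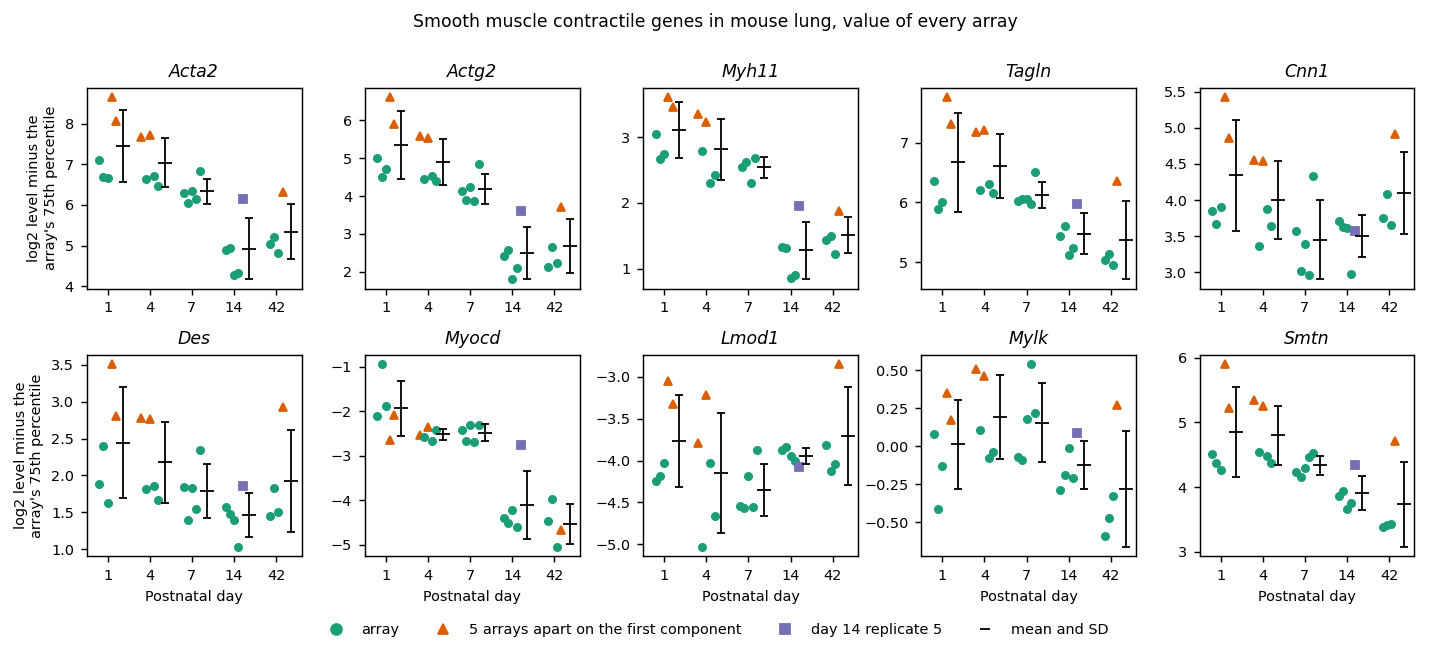
Level of each of the 10 members (log2 of intensity minus the 75th percentile of the array) on every array at postnatal days 1, 4, 7, 14 and 42, with the mean and SD of each age beside the points. Triangles are the 5 arrays that stand apart, which hold the highest Acta2, Actg2, Tagln, Cnn1 and Smtn levels of days 1, 4 and 42, and the square is day 14 replicate 5.

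Acta2, smooth muscle alpha actin, is the filament actin of vascular and airway smooth muscle. Its levels were 7.12, 6.70, 6.67, 8.67 and 8.06 at day 1 and 7.68, 6.64, 7.73, 6.71 and 6.47 at day 4 (replicates 1 to 5). They were 6.29, 6.05, 6.35, 6.15 and 6.85 at day 7, then 4.90, 4.94, 4.28, 4.32 and 6.14 at day 14, and 5.03, 5.20, 4.82 and 6.32 at day 42. Day 14 replicate 5 was the only day 14 array inside the day 7 range, and day 42 replicate 4 the only day 42 array inside it. The mean fell by 1.42 ± 0.41 (SE, 2.68-fold) on the log2 scale between day 7 and day 14 (adjusted p = 0.0229, limma, n = 5 and 5). Day 42 lay 2.10 ± 0.43 below day 1 (adjusted p = 0.000695) with no overlap. The order of the age means was day 1 (7.44 ± 0.89, SD), day 4 (7.05 ± 0.61), day 7 (6.34 ± 0.31), day 42 (5.34 ± 0.67) and day 14 (4.92 ± 0.75). No neighbours in that order differed past the test; the adjusted p was 0.101 for days 7 and 42, 0.376 for days 4 and 7 and 0.683 for days 42 and 14. Acta2 was printed in 10 spots with a CV of 2.34% to 4.34% on each array. The day 14 call ended without any 1 of day 7 replicate 5 (adjusted p = 0.0613), day 14 replicate 3 (0.074) or day 14 replicate 4 (0.0731).

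Since Acta2 is the classic target of serum response factor and myocardin, the 250 bases before its start are shown beside those of Cnn1, whose level did not follow it. The start is the one that the promoter table uses for each gene. Other RefSeq transcripts of Acta2 and Cnn1 begin farther upstream, so 212 and 32 of the bases lie inside the span of the whole gene. Both windows are from RefSeq on GRCm38.p6, read 5′ to 3′ on the gene's strand. Acta2 lies on the minus strand (chr19:34255374-34255623) and Cnn1 on the plus strand (chr9:22099003-22099252), and capitals mark CArG-like boxes.
Acta2: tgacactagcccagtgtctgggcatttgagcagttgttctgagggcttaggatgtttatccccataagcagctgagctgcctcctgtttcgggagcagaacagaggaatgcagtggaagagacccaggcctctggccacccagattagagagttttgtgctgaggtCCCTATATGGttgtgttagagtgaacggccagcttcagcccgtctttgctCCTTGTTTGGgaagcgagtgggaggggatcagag
Cnn1: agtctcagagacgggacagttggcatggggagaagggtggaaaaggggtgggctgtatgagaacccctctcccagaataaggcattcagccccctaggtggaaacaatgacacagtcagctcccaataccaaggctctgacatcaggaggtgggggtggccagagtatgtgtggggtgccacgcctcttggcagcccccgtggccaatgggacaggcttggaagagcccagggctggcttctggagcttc

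The search, on both strands, took the CArG box, a run of A and T bases between CC and GG with 10 bases in all, and the same box with 1 G or C inside the run. Acta2 held 2 boxes of the second kind, CCCTATATGG from 84 to 75 and CCTTGTTTGG from 34 to 25 bases before the start. Promoters of 6 members were in the table (Acta2, Cnn1, Des, Lmod1, Mylk and Smtn), and Acta2 was the only 1 of them with a box of either kind in this window. Those of Actg2, Myh11, Tagln and Myocd were absent, so boxes cannot be set against the fall of these genes. Smtn, lower at day 42 than at day 1, had no box, and all 250 bases of the Mylk window lay inside its gene span. Of all 32851 promoters of the same length, 482 (1.47%) held an exact box and 2380 (7.24%) a box with 1 G or C inside. A box of either kind was in 2823 (8.59%). These matches are letters in a window and were not tied to binding by any data here.

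Actg2 encodes gamma smooth muscle actin, the form of visceral smooth muscle. Its levels were 5.01, 4.50, 4.70, 6.62 and 5.91 at day 1, and 4.14, 3.90, 4.23, 3.86 and 4.85 at day 7. At day 14 they were 2.43, 2.58, 1.80, 2.09 and 3.60, and at day 42 they were 2.13, 2.66, 2.24 and 3.71. Day 4 ran from 4.40 to 5.58, and every array of days 14 and 42 lay below every day 7 array. The level fell by 1.70 ± 0.41 from day 7 to day 14 (3.24-fold, adjusted p = 0.00698) and was 2.66 ± 0.43 lower at day 42 than at day 1 (6.34-fold, adjusted p = 5.69e-05, limma). The log2 difference between day 42 and day 7 was -1.51 ± 0.43 (adjusted p = 0.0117). Actin isoforms are nearly identical in coding sequence, and whether the Acta2 and Actg2 probes read each other's transcript was not tested.

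Myh11 is the smooth muscle myosin heavy chain, the motor that is most specific to smooth muscle. Levels ran from 2.67 to 3.62 at day 1 and from 2.31 to 3.35 at day 4. At day 7 they were 2.55, 2.62, 2.31 and 2.69 on replicates 1, 3, 4 and 5, at day 14 they were 1.33, 1.32, 0.86, 0.91 and 1.96, and at day 42 they were 1.44, 1.49, 1.22 and 1.88. Days 14 and 42 overlapped none of the earlier ages. The spot of day 7 replicate 2 was marked as not uniform and left out; its intensity was 123900, against 6321 to 8176 on the other day 7 arrays. Myh11 fell by 1.26 ± 0.26 from day 7 to day 14 (2.40-fold, adjusted p = 0.00209, limma, n = 5 and 4). Its difference between day 42 and day 1 was -1.60 ± 0.26 (3.03-fold, adjusted p = 6.56e-05). In the authors' log2 table, which keeps the marked spot, the differences were -2.10 ± 0.55 and -1.43 ± 0.58, the second with adjusted p = 0.0613.

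Tagln encodes transgelin (SM22), an actin-binding protein that is an early marker of smooth muscle. The levels of day 7 were 6.03, 6.05, 6.05, 5.98 and 6.50, those of day 14 were 5.44, 5.60, 5.11, 5.24 and 5.98, and those of day 42 were 5.03, 5.14, 4.95 and 6.35. The groups touched without overlapping, both at 5.98 at the nearest, and the difference of -0.65 ± 0.34 did not pass (adjusted p = 0.271). Tagln ran from 5.89 to 7.77 at day 1 and from 6.16 to 7.21 at day 4. Day 42 was lower than day 1 by 1.30 ± 0.36 (2.46-fold, adjusted p = 0.00873) although the groups overlapped through day 42 replicate 4. Within slide 3, where that array is the only one of day 42, the difference was 0.34, against -2.03 and -1.55 on slides 1 and 2.

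Smtn encodes smoothelin, an actin-associated protein of contractile smooth muscle. Its brighter probe ran from 4.26 to 5.90 at day 1, from 4.16 to 4.52 at day 7, from 3.67 to 4.35 at day 14, and stood at 3.38, 3.41, 3.43 and 4.72 at day 42. Replicates 1 to 3 of day 42 lay below all arrays of every other age, and replicate 4 lay within the day 1 range. Day 42 was lower than day 1 by 1.12 ± 0.32 (2.17-fold, adjusted p = 0.0105), and its dimmer probe gave -1.32 ± 0.34 (adjusted p = 0.00713 over all probes). Within slide 3 the difference was 0.46, against -1.82 and -1.37 on slides 1 and 2. With the arrays of the compared ages alone, neither Tagln (adjusted p = 0.108) nor Smtn (0.13) passed between day 42 and day 1.

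Myocd, the coactivator of serum response factor, had levels of -2.11, -0.94, -1.88, -2.64 and -2.09 at day 1 and of -2.54, -2.59, -2.36, -2.68 and -2.43 at day 4. It stood at -2.43, -2.67, -2.30, -2.70 and -2.30 at day 7, at -4.41, -4.52, -4.22, -4.60 and -2.76 at day 14, and at -4.46, -3.97, -5.05 and -4.66 at day 42. On the arrays that stood apart it was the lowest of day 1 (replicate 4) and the highest of day 4 (replicate 3), unlike the actins, which were high on all 5. Days 4 and 7 differed by 0.04 ± 0.31 (adjusted p = 0.93). From day 7 to day 14 it fell by 1.62 ± 0.31 (3.08-fold, adjusted p = 0.000904, limma) with no overlap, although day 14 replicate 5 (-2.76) lay next to the lowest day 7 array (-2.70). The difference between day 42 and day 1 was -2.60 ± 0.33 (6.07-fold, adjusted p = 2.13e-06). The probe was dim, and with the normexp background these differences were -0.81 ± 0.20 (adjusted p = 0.0106) and -1.71 ± 0.22 (adjusted p = 2.13e-06). Day 1 replicate 2, the highest Myocd array, also had the highest summed cardiac muscle markers, and heart muscle expresses Myocd. The part of heart tissue in that value was not tested.

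Cnn1, Des, Lmod1 and Mylk passed in no comparison of ages. Cnn1, calponin of the actin filament, had age means of 4.34 ± 0.76, 3.99 ± 0.54, 3.46 ± 0.55, 3.50 ± 0.30 and 4.10 ± 0.57 (SD) in the order of age. Its difference between day 14 and day 7 was 0.05 ± 0.34 (SE, adjusted p = 0.981), and day 42 differed from day 14 by 0.60 ± 0.37 (adjusted p = 0.532). The lowest Cnn1 array of all was day 7 replicate 4 (2.96) and the highest day 1 replicate 4 (5.43). Des, the desmin filament of muscle cells, had means of 2.44 ± 0.75, 2.18 ± 0.55, 1.79 ± 0.36, 1.46 ± 0.30 and 1.93 ± 0.69. It did not pass between any ages (adjusted p = 0.161), nor did Cnn1 (0.157), in the limma F-test.

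Lmod1, leiomodin, which starts new actin filaments in smooth muscle, was dim, at -4.34 ± 0.31 at day 7, -3.95 ± 0.09 at day 14 and -3.71 ± 0.58 at day 42 (SD). Its difference between day 14 and day 7 was 0.40 ± 0.31 (adjusted p = 0.531), the only positive one of the 10 besides that of Cnn1. Mylk, the myosin light chain kinase that triggers contraction, had age means from -0.28 ± 0.38 at day 42 to 0.19 ± 0.28 at day 4. Mylk differed between day 42 and day 7 by -0.43 ± 0.20 (adjusted p = 0.125), and by -0.62 ± 0.14 (adjusted p = 0.00195) without the 5 arrays.

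**Figure D2:**
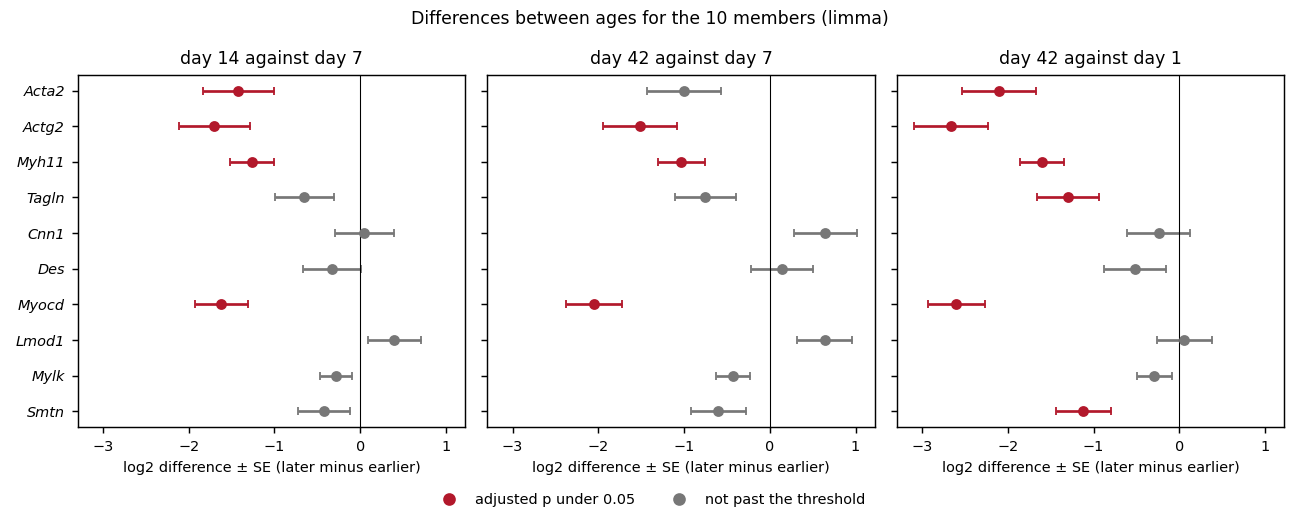
Log2 differences ± SE of the 10 members for day 14 against day 7, day 42 against day 7 and day 42 against day 1 (later minus earlier age, limma), in red where the adjusted p is under 0.05. Acta2, Actg2, Myh11 and Myocd are red for day 14 against day 7, with values between -1.70 and -1.26, while Cnn1 and Lmod1 lie at or above 0.

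From day 7 to day 14 the members' median log2 difference was -0.53, against 0.02 for all genes. In 4 members (Actg2, Myh11, Tagln and Myocd) all day 14 arrays lay below all day 7 arrays, as in 8.14% of all genes. With the 5 arrays left out Tagln (limma, adjusted p = 0.00238) and Smtn (0.00737) joined, which made 6 of 10 where 38.5% of genes passed in either direction. Without day 14 replicate 5 as well it was 7 of 10, with Mylk, where 44.7% of genes passed in either direction.

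Between day 42 and day 1 the median of the members was -1.21 and that of all genes -0.06. In 4 members (Acta2, Actg2, Myh11 and Myocd) all day 42 arrays lay below all day 1 arrays, as in 7.87% of all genes. The same 6 members were called without the 5 arrays, where 46.6% of all genes passed in either direction. Their differences then ran from -2.85 for Myocd to -0.97 for Smtn.

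For day 42 against day 7 the median was -0.68, against 0.06 for all genes. The 3 members called were also those whose groups did not overlap, as in 12.1% of all genes. With the 5 arrays out 7 of 10 passed, where 46.5% of genes did in either direction. Acta2 then had -1.32 ± 0.31 (adjusted p = 0.00212), Tagln -1.08 ± 0.17 (6.32e-05) and Smtn -0.93 ± 0.13 (2.26e-05). Leaving out day 42 replicate 4 alone also gave 7 members, a count that stands here without the share of all genes in that run.

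The other intervals called 0 members by limma. They were day 4 against day 1 (background 0.0628%), day 7 against day 4 (0.00628%) and day 42 against day 14 (3.69%). At an unadjusted p under 0.05 the count was also 0 in each, where 817, 1348 and 2241 of the 15916 genes tested passed. In each of the first 2 intervals 9 of 10 member differences were negative, with medians of -0.32 and -0.42, against 0 and -0.23 for all genes. Without the 5 arrays 7 and 5 of 10 were negative, and the medians were -0.20 and -0.05, against 0.04 and -0.04 for all genes. In day 42 against day 14 the median was 0.21, and without the 5 arrays Smtn passed as lower (-0.51 ± 0.13, adjusted p = 0.0147). Across any ages, 6 of 10 members differed in the F-test, where 31.8% of genes did.

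Members were also compared with each other inside each array, where scaling between arrays plays no part. The log2 value of each of the other 9 members minus that of Acta2 was compared between ages by exact two-sided permutation tests in 3 comparisons, 27 tests in all, which share Acta2 and some arrays. Actg2 followed Acta2 closely, at -2.09 ± 0.09, -2.14 ± 0.05 and -2.14 ± 0.10 relative to it at days 1, 4 and 7 (SD). It then drifted lower, to -2.41 ± 0.12 at day 14 and -2.66 ± 0.16 at day 42. From day 7 to day 14 the shift was -0.27 (exact p = 0.0159, adjusted over the 27 tests p = 0.0226), and from day 7 to day 42 it was -0.51 (exact p = 0.00794, adjusted p = 0.0153).

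Cnn1, Des, Lmod1, Tagln and Smtn gained on Acta2 in all 3 comparisons. Lmod1 gained 1.82 from day 7 to day 14 (exact p = 0.00794, the smallest that 252 regroupings give, adjusted p = 0.0153) and Cnn1 1.47 (exact p = 0.0159, adjusted p = 0.0226). Of the Lmod1 shift, 1.42 was the fall of Acta2 and 0.40 the rise of Lmod1, which did not pass in limma. The Lmod1 probe was dim, with intensities of 32.49 to 95.2 before scaling, and the part of background in its shift was not tested. Des gained 1.09 (exact p = 0.00794, adjusted p = 0.0153) and Smtn 1.00 (exact p = 0.0159, adjusted p = 0.0226). Tagln, at 0.78 (exact p = 0.0159, adjusted p = 0.0226), gained least of these 5, and by day 42 its gain over day 7 was 0.24 (exact p = 0.0238, adjusted p = 0.0321). Mylk gained 1.15 from day 7 to day 14 (exact p = 0.0159, adjusted p = 0.0226) and 1.81 from day 1 to day 42 (exact p = 0.00794, adjusted p = 0.0153).

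The call of Mylk at day 14 ended without any 1 of day 7 replicates 1, 2, 3 and 5 or day 14 replicate 3 (exact tests, adjusted p = 0.051 to 0.0564). The calls of Tagln and Smtn for day 42 against day 7 ended without most single arrays of those ages (exact tests, adjusted p = 0.0689 to 0.115), the exceptions being day 42 replicate 2 for both, day 7 replicate 2 for Tagln and day 7 replicate 4 for Smtn.

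Shifts of Myh11 against Acta2 did not pass, at 0.23 from day 7 to day 14, 0.04 from day 7 to day 42 and 0.50 from day 1 to day 42 (exact p of 0.167 or more). Myocd fell further than Acta2 only from day 7 to day 42 (-1.06, exact p = 0.00794, adjusted p = 0.0153). That shift was -0.14 (exact test, adjusted p = 0.643) with the normexp background. Without the 5 arrays only 3 are left at each of days 1 and 42, too few for any shift between them to pass the exact test. The shifts of Lmod1, Cnn1 and Des from day 1 to day 42 were then 1.97, 1.83 and 1.44.

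**Figure D3:**
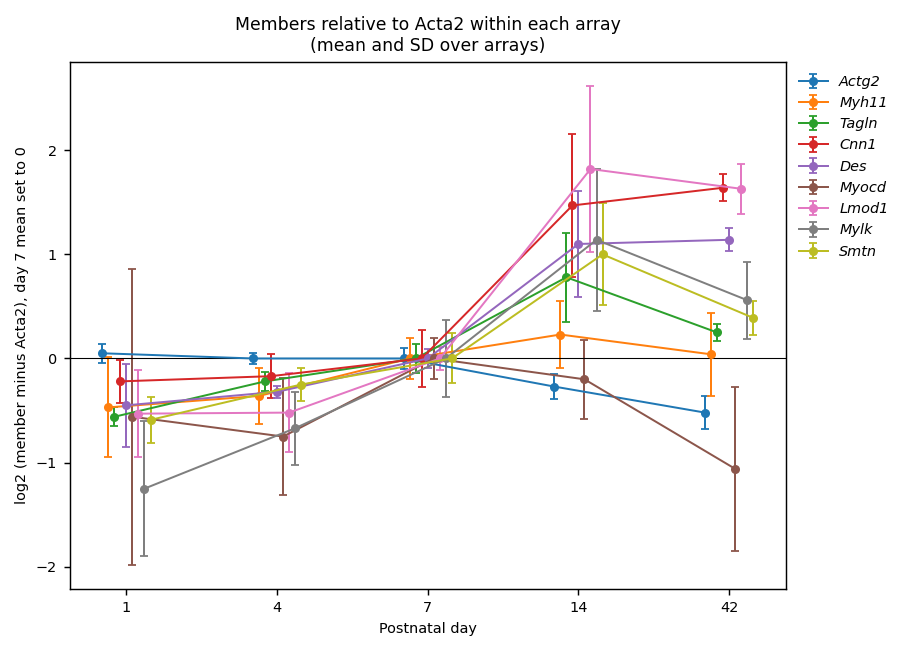
Log2 value of each of the 9 other members minus that of Acta2 on the same array, as mean and SD over the arrays of each age, with the day 7 mean of each member set to 0. Lmod1, Cnn1, Des and Mylk lie more than 1 above 0 at day 14, Actg2 lies below 0 at days 14 and 42, and Myocd has the widest SD at day 1 (1.42).

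The levels of members were also correlated over the arrays, as a description: the points share age, array scaling and the 5 arrays. Over all 24 arrays, or 23 for Myh11, Pearson's r was 0.99 for Acta2 and Actg2, 0.98 for Acta2 and Myh11, 0.95 for Acta2 and Tagln, and 0.98 for Tagln and Smtn. Lmod1 had r = 0.28 with Acta2 and 0.81 with Cnn1. Over the 19 arrays without the 5, Lmod1 and Acta2 had r = -0.47 and Cnn1 and Acta2 0.22, against 0.64 with all arrays. Myocd and Acta2 had r = 0.91 over the 19 arrays. Once age means were removed, with the 5 arrays kept, Acta2 had r = 0.99 with Actg2, 0.83 with Cnn1, 0.73 with Lmod1 and 0.11 with Myocd. The 5 arrays enter these values, which were not taken without them.

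The genes most like the mean of the 10 standardised members over the 24 arrays were Nt5c3b, Slc2a10, Jpt1, R3hcc1, Ptov1, Coa7, Med25, Cdk4, Zfp13 and Crtap, each with r = 0.99 and Spearman's rho of 0.94 to 0.98. Over the 19 arrays without the 5, the closest were Thop1, Tpm2, Acta1, Nt5c3b and Coa7 (r = 0.97 each, 19 arrays), of which Tpm2 is a muscle tropomyosin and Acta1 skeletal muscle actin.

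Among 27 partners of the contractile filament 4 were lower at day 14 than at day 7 and 0 higher (median -0.40), and 12 were lower and 2 higher at day 42 than at day 1 (median -0.61). Of all genes 11.6% and 26.7% were called in these comparisons. Over the 19 arrays 16 were lower and 1 higher at day 14 and 18 were lower and 2 higher at day 42, while the calls over all genes rose to 38.5% and 46.6%. Pdlim3, a Z-disc and stress fibre LIM protein, fell by 2.39 ± 0.36 from day 7 to day 14 (5.25-fold, adjusted p = 0.000104). Its levels lay between 4.52 and 4.77 at day 7 and between 1.66 and 3.94 at day 14, with no overlap. Myl9, the regulatory light chain of smooth muscle myosin, was lower at day 42 than at day 1 by 1.62 ± 0.34 (adjusted p = 0.000773), Tpm2 by 1.67 ± 0.39 (adjusted p = 0.00229) and Pdlim7 by 1.43 ± 0.35 (adjusted p = 0.00337).

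Of 16 genes that control myosin light chain phosphorylation 0 were called by limma from day 7 to day 14 (median 0.05), where 11.6% of all genes were. For day 42 against day 1 and against day 7 the shares of all genes called were 26.7% and 25.1%. At day 42 against day 1 only Ppp1r12b, a myosin phosphatase subunit, was called (-0.96 ± 0.25, adjusted p = 0.00516), and against day 7 only Gucy1a1, a nitric oxide receptor subunit (-0.71 ± 0.18, adjusted p = 0.00564). With the 5 arrays out 2 of the 16 were lower from day 7 to day 14, where 38.5% of all genes were called.

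Receptors and channels went in both directions: of 20 tested, 5 were higher and 2 lower at day 14 than at day 7 (7 and 5 over the 19 arrays). Of all genes 11.6% were called in that comparison, and 38.5% over the 19 arrays. Ptgfr, the prostaglandin F receptor, rose by 2.70 ± 0.31 (6.49-fold, adjusted p = 1.32e-05) and was 11.7-fold higher at day 42 than at day 1. Adra1a, an alpha-1 adrenergic receptor, was not well above background on any array of days 1, 4 and 7, and at day 42 was at least 4.70-fold higher than at day 1 (mean levels -3.17 and -7.44, adjusted p = 6.02e-07). Such a bound compares the mean of the bright group with the dimmest probe that each array of the dim group could still detect. Chrm3, the muscarinic receptor of airway smooth muscle, was detected above background on no day 7 array and was at least 3.13-fold higher at day 42 than at day 7 (mean levels -3.92 and -5.70, adjusted p = 0.000389). Against day 1, Chrm3 did not pass at day 42 (0.46 ± 0.34, adjusted p = 0.364). Day 7 lay 1.49 ± 0.32 below day 4 (adjusted p = 0.12). Kcnma1, the large-conductance calcium-activated potassium channel, fell by 1.98 ± 0.32 from day 7 to day 14 (adjusted p = 0.00019), when it was well above background on 2 of 5 arrays, so that values near background enter this difference.

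Among 33 regulators of the contractile programme 3 were lower and 0 higher at day 14 than at day 7 (median -0.12), and 10 were lower and 1 higher at day 42 than at day 1. These shares are near those of all genes called (11.6% and 26.7%). Over the 19 arrays 5 were lower and 3 higher, and 15 were lower and 3 higher, where 38.5% and 46.6% of all genes were called. Fhl2, a LIM cofactor, fell by 1.53 ± 0.43 (adjusted p = 0.0214) and Tead3 by 0.84 ± 0.26 (adjusted p = 0.035) from day 7 to day 14. Twist1 fell by 2.92 ± 0.78 (adjusted p = 0.0145), with 2 of 5 day 14 arrays well above background and a range there from -7.62 to -2.76, so values near background enter here too. Tcf21, of lung fibroblasts, was lower at day 42 than at day 1 by 1.49 ± 0.28 (adjusted p = 0.000304). The DNA-binding partner of myocardin and the related coactivators, picked out after their values were seen, did not pass from day 7 to day 14. Srf had -0.26 ± 0.31 (adjusted p = 0.758), Mrtfa -0.12 ± 0.30 (adjusted p = 0.928) and Mrtfb -0.10 ± 0.14 (adjusted p = 0.812).

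Markers of other cells that use these genes were read in the same arrays. Of 16 alveolar myofibroblast markers 7 were lower and 1 higher at day 14 than at day 7 (median -1.44), where 11.6% of all genes were called. At day 42 against day 7, 12 were lower and 1 higher (median -2.39), where 25.1% of all genes were called. In the fit of 19 arrays 11 were lower and 3 higher, and 14 were lower and 2 higher. There 38.5% and 46.5% of all genes were called. Their summed level, in units of the array's 75th percentile, was 284 to 314 on the day 7 arrays and 98.5 to 109 on 4 of the day 14 arrays. Day 14 replicate 5 had 271, and the day 42 arrays 57.8 to 78.0. The summed level of the 10 members was 177 to 291 at day 7, 88.2 to 119 on the same 4 day 14 arrays, 187 on replicate 5 and 93.4 to 243 at day 42. At day 42 replicate 4 the members' sum was 243 and the next highest 113, while its myofibroblast sum was 78.0 and the next highest 63.4. That array is 1 of the 5 that stood apart, and its sum of the 27 contractile partners was also high (2680, next highest 1390). A sum over probes is carried by the brightest ones, among the members Acta2 (79.6 on that array) and Tagln (81.7). The part of array scaling in this contrast was not tested. Pdgfra, a receptor that marks these cells, was the marker that rose from day 7 to day 14 (1.01 ± 0.20, adjusted p = 0.00154).

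Within that list Tnc, a matrix glycoprotein, had a log2 difference of -5.32 ± 0.52 between day 42 and day 7 (adjusted p = 1.46e-07), and Fbn2, fibrillin-2, one of -4.48 ± 0.43 (adjusted p = 1.22e-07). Aspn, a matrix proteoglycan, had -4.19 ± 0.86 (adjusted p = 0.000776) and P2ry14, a nucleotide receptor, -3.54 ± 0.42 (adjusted p = 1.54e-06). At day 42 only 1 of 4 arrays had Tnc well above background, so the size of its difference rests on values near background. The part of a change in myofibroblasts in the fall of Acta2, Actg2, Myh11 and Myocd was not tested.

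Of 12 markers of pericytes, the contractile cells on capillaries, 1 was lower from day 7 to day 14 (median -0.26) and 3 were lower from day 1 to day 42. Of all genes 11.6% and 26.7% were called there. Kcnj8 was lower at day 14 (-0.78 ± 0.23, adjusted p = 0.0265), and Cspg4 was lower at day 42 than at day 1 (-1.06 ± 0.30, adjusted p = 0.0102). Rgs5 (-3.06 ± 0.89, adjusted p = 0.0131) and Postn (-1.24 ± 0.29, adjusted p = 0.00254) were lower at day 42 than at day 7. Rgs5 spread widely at day 42, from -6.35 to -0.97, and its difference was -2.04 ± 0.43 without the 5 arrays. Over the 19 arrays 4 of 12 were lower from day 7 to day 14 and 6 from day 1 to day 42, shares near those of all genes called (38.5% and 46.6%).

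Cardiac and skeletal muscle markers stood out on 1 array. Of 18 cardiac markers tested 1 was higher at day 14 than at day 7, where 11.6% of all genes were called. Their summed level was 1440 on day 1 replicate 2, against 64.4 to 161 on the other day 1 arrays and at most 357 on any array of the later ages. Skeletal markers were also highest there (179, next highest at any age 42.2), and of 15 tested 4 were lower and 1 higher at day 14 than at day 7. Acta2 on that array was 6.70, next to the lowest day 1 value (6.67). Des, a gene that heart muscle uses, was 2.40 there, below only replicates 4 (3.51) and 5 (2.80) at day 1. Both of those are among the arrays that stood apart, and Des was highest on day 1 replicate 2 among the other day 1 arrays. Before scaling, its Des intensity (6852) was the highest of all 24 arrays. Relative to Acta2 on the same array, Des ran from -5.25 to -4.3 at day 1, and replicate 2 held the highest value. The part of heart tissue in these Des values was not tested.

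Other neighbouring tissues and stroma were checked in the same way for day 42 against day 1. Of 9 cartilage markers tested 3 were lower, of 4 oesophageal epithelium markers 1 was higher and 1 lower, and of 7 mesothelial markers 2 were higher and 1 lower. Of 13 matrix fibroblast and lipofibroblast markers 3 were higher and 6 lower. In this comparison 26.7% of all genes were called. Without the 5 arrays the counts higher and lower were 0 and 4, 1 and 1, 1 and 1, and 2 and 6, where 46.6% of all genes were called. From day 7 to day 14 these lists had 0 higher and 1 lower, 0 and 0, 1 and 0, and 2 and 1, where 11.6% were called. Their part in the members' levels was not tested.

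**Figure D4:**
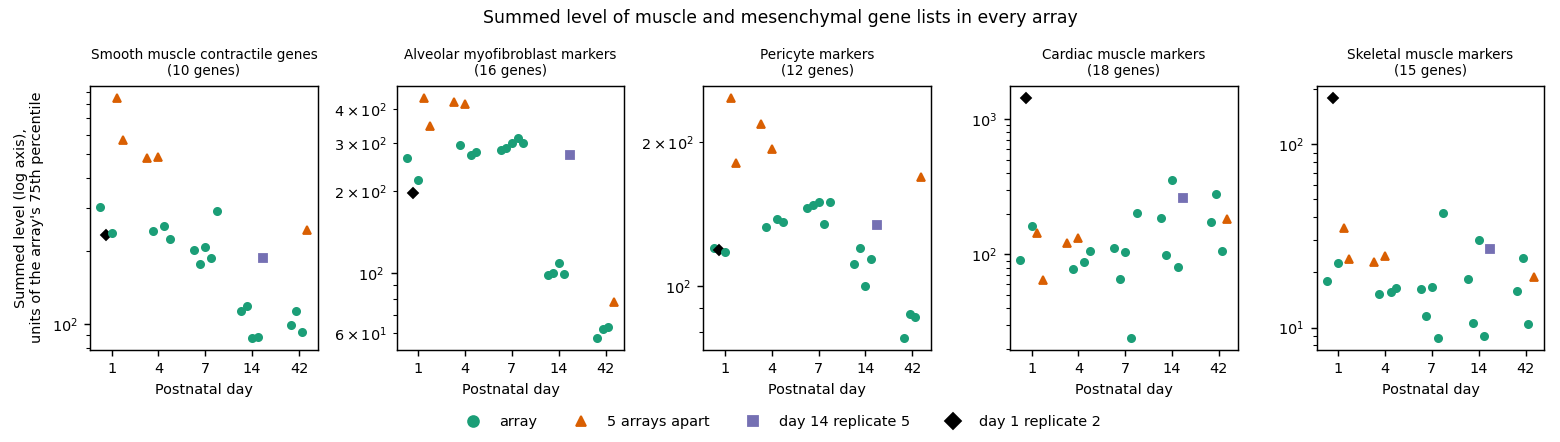
Summed level of the 10 members and of 4 marker lists on every array (log axis, units of the array's 75th percentile) by postnatal day. The myofibroblast sum of day 14 replicate 5 (271) lies near the day 7 arrays, and day 1 replicate 2 has the highest cardiac (1440) and skeletal (179) sums.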

How the data were processed

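The members and gene lists were chosen with earlier results of these data known. Per the file headers, the deposited scans hold a processed intensity for each spot (background subtracted) from Feature Extraction 10.7.3.1, while the submitters' processing notes give 10.7.1.1. Median spot and background intensity, and 0 or 1 marks for detection, saturation and uniformity of a spot, are also in the deposited scans. The authors deposited a table of log2 values of 52095 probes too, with array medians of 5.66 to 6.26. Set against log2 of the processed intensity it had r of 0.9862 or more on each array, with median differences of -0.64 to 0.83. It tracks that signal closely but differs by more than a shift on some arrays, such as day 14 replicate 3 (r = 0.9862). Its centring is not given in the sources used here.

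Here log2 of the processed intensity minus each array's 75th percentile was used. Controls and non-uniform spots were removed and the spots of a probe averaged (55681 probes). A further rule kept 138 probes that lacked an array, since at least 3 remained at each age. Names came from a RefSeq table of GRCm38.p6 used for symbols. Each gene was represented by its probe of highest mean, and entered the test if 4 or more arrays detected it. The fit used limma 3.58.1 under R 4.3.3 (1 mean per age, all arrays together, Benjamini-Hochberg over 15916 genes for each comparison). The procedure was tested on simulated data, with noise drawn separately for each gene and so without shifts shared by whole arrays. There it recovered 33% to 42% of 2-fold and 75% to 91% of 4-fold changes, by comparison. A gene that did not pass may therefore still differ. An adjusted p with no other test named is from limma. Array numbers limit the precision, and 0 spots were saturated.

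The rule for naming took the 10 members and the 10 most correlated genes. It also took up to 4 genes of each of 12 lists, those with the largest difference past the test in any comparison. For the cardiac, skeletal, cartilage, oesophagus, mesothelium and matrix fibroblast lists only counts or sums are given above. Exceptions are Tcf21 and Pdgfra, which stand in other lists too, and Acta1, a close correlate. Pdgfra, Srf, Mrtfa and Mrtfb were added after their values were seen. The lists cover contractile partners, light chain phosphorylation, excitation and receptors, regulators, and markers of myofibroblasts, pericytes, cardiac and skeletal muscle, cartilage, oesophagus, mesothelium and matrix fibroblasts. Alternatives covered background correction, scaling, the authors' table, the filter, probes, slide and replicate blocks, array weights, the arrays in the fit and each array left out.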

Additional observations from a re-analysis of the deposited data

Results flagged for a closer look

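Single arrays lay far from the rest of their age for 6 of 55 probe and age groups, where chance gives about 1 in 20 for independent groups. These groups share arrays, and Smtn has 2 probes, so 1 unusual array can count more than once. Day 42 replicate 4, 1 of the 5 arrays that stood apart, was far above the other day 42 arrays for Tagln (level 6.35, others 4.95 to 5.14) and for both Smtn probes (4.72, others 3.38 to 3.43, and 2.37, others 0.76 to 1.03). Its 75th percentile of intensity was 672, the lowest of that age. Tagln was high on day 7 replicate 5 (6.50, others 5.98 to 6.05). Cnn1 was low on day 14 replicate 4 (2.98, others 3.58 to 3.71). Myocd was high on day 14 replicate 5 (-2.76, others -4.60 to -4.22), the array whose summed myofibroblast level was near that of day 7.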

How the results depend on the processing

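Among the values of members under alternatives, 2084 kept their direction and side of the threshold, 78 that were not called turned sign, 51 passed anew, 7 no longer passed and 0 called values turned sign. Among the 7, Myh11 for day 42 against day 7 had adjusted p = 0.0529 with median scaling. The normexp background, no filter, the strictest filter, averaging of probes, the slide block and the replicate block each called the same members as reported (4 for day 14 against day 7, 3 for day 42 against day 7, 6 for day 42 against day 1). Same-numbered samples of different ages had a median correlation of deviations from age means of -0.01 (-0.85 to 0.88). Other pairs had 0.02 (-0.90 to 0.91). With so wide a spread these medians cannot decide whether the replicate numbers pair the samples. The replicate block gave 14 calls over 11 probes and 6 comparisons, as without it. Members called for day 42 against day 7 numbered 6 with quantile normalization, 7 in the authors' table and 7 without the 5 arrays or without 6 (those and day 14 replicate 5), where 31.2%, 34.9%, 46.5% and 48.2% of all genes passed. For day 42 against day 14 there were 2 in the authors' table and 1 without the 5 or the 6 arrays. Shares of all genes are not given for these counts or for those with 1 array left out. Such counts alone do not single out the members. Shares that are given count calls in either direction. For day 14 against day 7 there were 7 without the 6 arrays, and 6, with Tagln and Smtn, with quantile normalization, in the authors' table, with the compared ages alone and without the 5 arrays (18%, 22.4%, 31.1% and 38.5% of all genes). Array weights called 1, 1, 9, 2 and 9 members for day 4 against 1, 7 against 4, 14 against 7, 42 against 14 and 42 against 7, where 8.16%, 29.2%, 61.5%, 31.3% and 62.1% of all genes passed; 1 of the first 9 and 2 of the second 9 were higher, the others lower. Calls over all probes of members (14 of 66) were 29 with array weights and 24 without the 5 or the 6 arrays. Shifts against Acta2 that passed (21 of 27) numbered 12 without the 5 and 11 without the 6 arrays, where smaller groups raise the smallest p. Leaving out 1 array gave 3 to 4 members for day 14 against day 7, 3 to 7 for day 42 against day 7 (7 without day 42 replicate 4), and 0, 0, 0 and 6 throughout for day 4 against 1, 7 against 4, 42 against 14 and 42 against 1; 12 to 19 probe calls and 18 to 22 shifts. Median scaling moved the median of all genes from 0.02 to -0.15 for day 14 against day 7 from -0.23 to -0.37 for day 7 against day 4 and from 0.07 to 0.28 for day 42 against day 14. It moved the genes called higher and lower from 960 and 880 to 434 and 871 for day 14 against day 7, and from 347 and 240 to 355 and 109 for day 42 against day 14. The cause of these moves was not tested. Runs without the 5 arrays for correlations and lists were added after the data were seen. Signal over background limits Lmod1 and Myocd. The Myocd difference between day 14 and day 7 was -0.81 with the normexp background and -1.62 as reported.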
